A study of Mus musculus with 12 samples.

Results

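Interferon-linked members of the PARP family were followed across 12 mouse liver RNA-seq libraries. The genes were chosen by symbol (Parp9, Parp10, Parp12, Parp14 and the Parp9 partner Dtx3l, with the DNA-repair enzymes Parp1 and Parp2 for comparison), and a gene was taken where the identifier of its row equalled the symbol. Of these 7 genes, 6 had such a row among the 19852 genes of the deposited table. Parp10 was not analysed here. All 6 were expressed highly enough to be among the 10568 genes tested.

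The livers came from C57BL/6 mice 20 weeks old, in 4 groups of 3 libraries: female wild type (WT), female ARE-Del, male WT and male ARE-Del. ARE-Del mice lack the AU-rich element of Ifng, a sequence in the untranslated end of the mRNA that shortens the life of the transcript, and the series uses them as a model of chronic interferon-gamma expression. The allele is a germline change, so it is not limited to 1 cell type, and the WT animals were control littermates. The extraction note is the same for every sample and names ARE-Del mice in all, so the groups follow the sample titles and genotype labels. The labels do not state that the 3 libraries of a group came from separate animals, so p-values measure only the spread between these libraries.

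PARP enzymes cut NAD and attach its ADP-ribose to proteins or nucleic acids. Parp1 and Parp2 build chains of ADP-ribose at DNA breaks and so recruit repair proteins. Most other PARPs attach single ADP-ribose units, and several of them carry macrodomains, folds that read ADP-ribose. Parp9, Parp10, Parp12, Parp14 and Dtx3l are known as genes that interferon turns on, and the Parp9-Dtx3l and Parp14 proteins are known to act back on interferon signalling and on viruses.

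Values are RPKM, reads per length of transcript and size of library, so levels can be set side by side between genes. Summed RPKM was 173476 to 208647 per library, and the relative depth estimated from the steps between low values was 0.908 to 1.45 times that of female WT 1. Ifng was low, between 0 and 0.0382 in the 6 WT libraries and between 0.0742 and 0.238 in the 6 ARE-Del libraries (exact stratified permutation test, 2-sided p = 0.005, the smallest its 400 arrangements allow). RPKM of the whole gene cannot show whether the element is deleted. Xist was 0.0456 in the library labelled female ARE-Del 2 and 33.0 to 45.6 in the other 5 female libraries. Ddx3y, a gene of the Y chromosome, was listed at 0 in all 6 female libraries, that one included, and was 9.34 to 13.5 in the 6 male libraries. Because of the low Xist, the female changes are also given without that library. Albumin took 8.56% to 16.5% of summed RPKM.

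The comparison of ARE-Del with WT livers asked, in each sex, which transcripts changed with lasting interferon-gamma expression. All 4 measured interferon-linked genes rose in both sexes, by 1.49-fold to 2.76-fold in mean RPKM. Parp14 rose the most and Parp9 and Dtx3l the least, and Parp12 lay between them in both sexes. Of all tested genes 25.8% were called higher and 5.53% lower in female ARE-Del livers (31.3% in either direction), and 19.5% higher and 2.04% lower in male ARE-Del livers (21.5%). Under median-of-ratios scaling 1790 genes were called higher and 2040 lower in females (2722 and 584 as deposited) and 1165 and 1112 in males (2056 and 216). Of the repair enzymes, Parp1 passed in neither sex. Parp2 rose in females, by 1.56-fold in mean RPKM, below the 1.69-fold to 2.61-fold of the 4 interferon-linked genes in females.

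**Figure D1:**
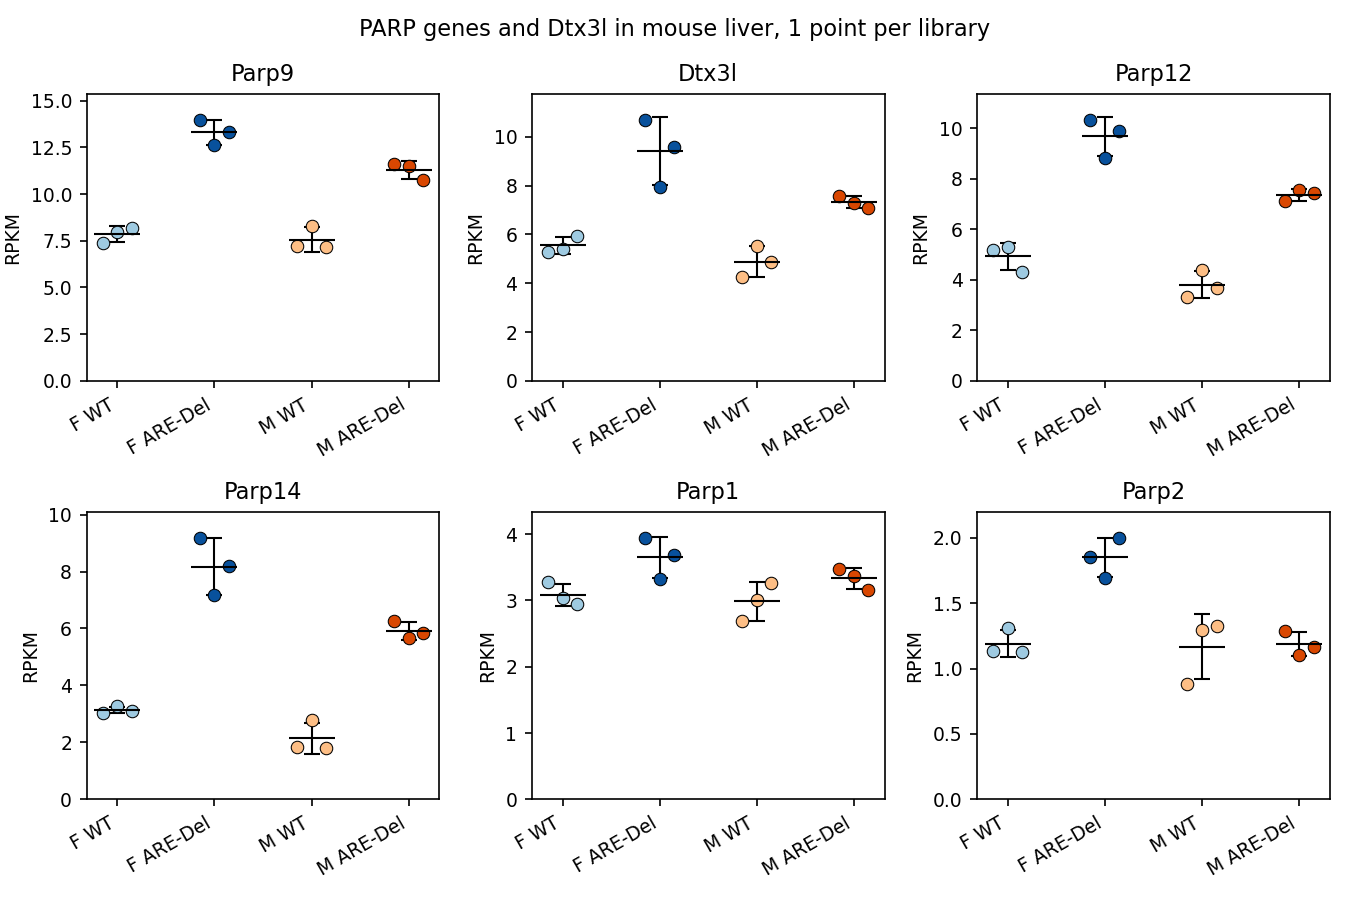
RPKM of the 6 measured genes by group (F, female, M, male); points are libraries, the bar and whiskers are mean and SD over 3 libraries. For Parp9, Dtx3l, Parp12 and Parp14 every ARE-Del library lies above every WT library, whereas Parp1 and Parp2 overlap between the male groups.

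Parp14, a large macrodomain PARP also known as a cofactor of STAT6, measured 3.04, 3.26 and 3.11 RPKM in WT females, against 9.17, 7.16 and 8.19 with the allele. WT males gave 1.85, 2.78 and 1.80 RPKM, and their ARE-Del counterparts 6.26, 5.66 and 5.83. All 6 ARE-Del libraries were higher than all 6 WT libraries, and the lowest of them, male ARE-Del 2, was still 5.66. Such separation within a sex, with ARE-Del higher, was seen in 34.9% of tested genes in females and 36.1% in males. On the log2(RPKM + 1) scale Parp14 rose by 1.14 ± 0.11 in females (SE; limma, adjusted p = 7.7e-06) and by 1.15 ± 0.11 in males (adjusted p = 2.5e-05). Mean RPKM was 2.61-fold higher in female and 2.76-fold higher in male ARE-Del livers.

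Parp12, a zinc-finger PARP of the Golgi that is known as an antiviral factor, measured 5.17, 5.30 and 4.32 RPKM in WT females against 10.3, 8.82 and 9.87 with the allele. WT males had 3.34, 4.40 and 3.68 RPKM of Parp12, against 7.11, 7.54 and 7.43 with the allele. The groups did not overlap in either sex, and the mean was 1.96-fold and 1.93-fold that of WT. The log2 rise was 0.85 ± 0.09 in females (SE; limma, adjusted p = 2.1e-05) and 0.81 ± 0.09 in males (adjusted p = 9.3e-05).

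Parp9, a macrodomain protein that works in a complex with Dtx3l, measured 7.37, 7.97 and 8.18 RPKM in WT females against 14.0, 12.6 and 13.3 with the allele. For males the Parp9 values were 7.22, 8.31 and 7.14 RPKM (WT) against 11.6, 11.5 and 10.7 (ARE-Del), again without overlap. It was the highest of the 6 genes in all 12 libraries. Its log2 rise was 0.69 ± 0.07 in females (SE; limma, adjusted p = 1.5e-05) and 0.52 ± 0.07 in males (adjusted p = 3.5e-04).

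Dtx3l, the E3 ubiquitin ligase that binds Parp9, measured 5.29, 5.42 and 5.95 RPKM in WT females against 10.7, 7.95 and 9.57 with the allele. Male Dtx3l was at 4.27, 5.51 and 4.88 RPKM (WT) against 7.57, 7.30 and 7.07 (ARE-Del). The female ARE-Del libraries spread most, between 7.95 and 10.7, and still lay above all WT libraries. Dtx3l rose by 0.66 ± 0.10 on the log2 scale in females (SE; limma, adjusted p = 3.1e-04) and by 0.50 ± 0.10 in males (adjusted p = 0.00393). Leaving out female ARE-Del 2, the library low in Xist, the female log2 rises were 0.76 for Dtx3l, 0.73 for Parp9, 0.91 for Parp12 and 1.22 for Parp14, all still past the threshold (limma, adjusted p between 1.7e-05 and 1.1e-04).

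Parp9 and Dtx3l lie head to head on mouse chromosome 16, and Parp14 lies on the same stretch. In GENCODE M21 (GRCm38, a later build than the mm9 assembly of the deposited values) Parp9 spans chr16:35938470-35972605 on the plus strand, Dtx3l chr16:35926511-35939151 on the minus strand and Parp14 chr16:35832874-35871544 on the minus strand. The Parp9 and Dtx3l gene bodies overlap by 682 bases, of which 458 are exonic in both, 8.0% of the Dtx3l and 9.4% of the Parp9 exon bases. Whether reads were counted by strand is not given in the sources used here, so reads from that overlap cannot be assigned to one gene or the other. The promoter sequence of Dtx3l (RefSeq, GRCm38.p6, chr16:35938978-35939277, minus strand, 250 bases before to 50 after the start) is shown because it also holds starts of Parp9 transcripts. Capitals mark the 17 bases from the RefSeq start of Dtx3l to the start of one Parp9 transcript in GENCODE M21, which both genes transcribe in opposite directions.
Dtx3l: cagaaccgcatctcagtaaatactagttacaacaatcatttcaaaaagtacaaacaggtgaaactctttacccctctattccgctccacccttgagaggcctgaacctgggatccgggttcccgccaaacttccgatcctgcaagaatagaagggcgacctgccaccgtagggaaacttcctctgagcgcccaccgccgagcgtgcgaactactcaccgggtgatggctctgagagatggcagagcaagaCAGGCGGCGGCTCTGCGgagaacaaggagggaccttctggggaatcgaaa

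Parp12 lies on chromosome 6 (GRCm38, chr6:39086410-39118349, minus strand). Its promoter (RefSeq, GRCm38.p6, chr6:39118300-39118599, minus strand) is printed as that of a gene that rose by nearly the same log2 amount in both sexes, and it is rich in G and C (73.7%, against 54.3% for Dtx3l). No capitals are set in it.
Parp12: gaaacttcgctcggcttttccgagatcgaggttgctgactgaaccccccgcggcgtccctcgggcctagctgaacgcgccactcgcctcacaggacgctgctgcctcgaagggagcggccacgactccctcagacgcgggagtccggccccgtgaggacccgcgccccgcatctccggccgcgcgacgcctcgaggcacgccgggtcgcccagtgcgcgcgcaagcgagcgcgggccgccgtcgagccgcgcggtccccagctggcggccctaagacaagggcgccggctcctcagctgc

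Motifs were searched on both strands in these windows. TTCNNNGAA is the core of the GAS element of interferon-gamma response genes, and GAAA, any 2 bases and GAAA again form the core of the ISRE bound by IRF proteins. Over 32851 mouse promoters of the same length 8.30% held the first and 3.44% the second. Neither string of letters occurs in the windows of Dtx3l, Parp12, Parp1 or Parp2. That says only that these letters are not in these windows. The table holds windows for 4 of the 7 genes, not for Parp9, Parp10 and Parp14.

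Of the neighbours of this group on chromosome 16, 3 were tested, all on the Parp9 side. None of the 3 was called higher, beside 25.8% of all tested genes in females and 19.5% in males. With 3 genes at those shares, the count is not a result about the locus. Of the 3, the importin gene Kpna1, directly beside Parp9, fell by 0.33 ± 0.08 on the log2 scale in females (limma, adjusted p = 0.00947) and was at -0.05 ± 0.08 in males (adjusted p = 0.696). Fam162a (listed as 2310056P07Rik) was at 0.00 ± 0.08 and -0.08 ± 0.08, and Ccdc58 at -0.10 ± 0.07 and -0.02 ± 0.07, and neither passed. Under median-of-ratios scaling 2 of the 3 fell in females and 1 in males, beside 2040 and 1112 of all 10568 tested genes. Hspbap1 on the Parp14 side reached at most 0.254 RPKM, and it was not tested, so no value bears on that side.

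**Figure D2:**
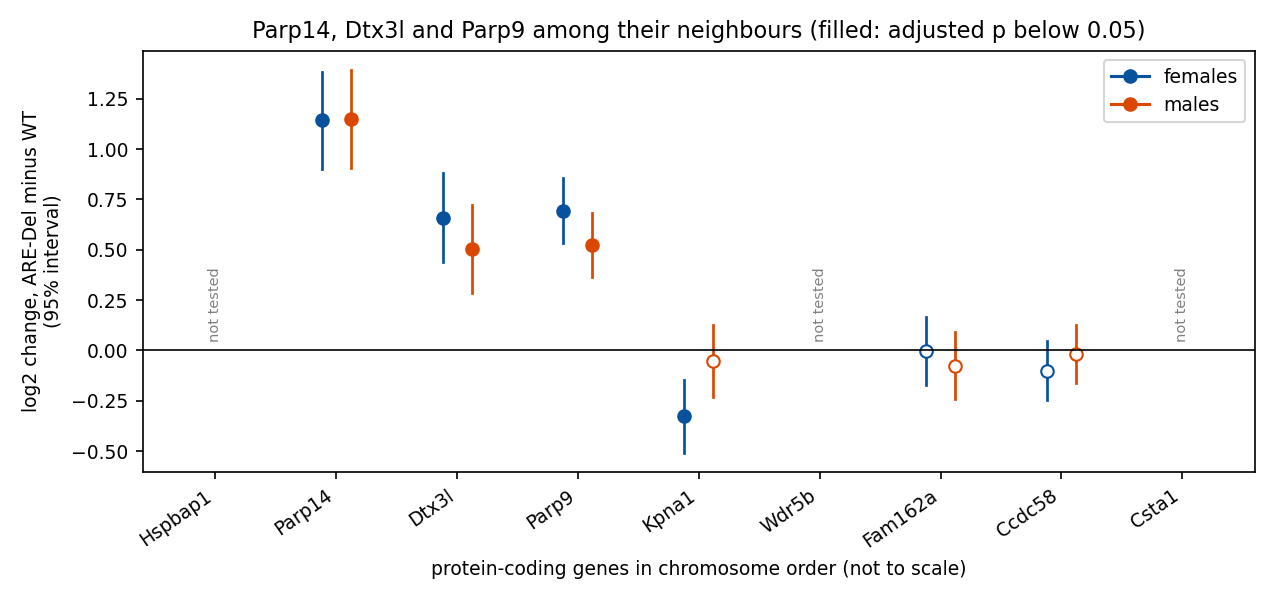
Log2 change of RPKM + 1 (ARE-Del minus WT) with 95% intervals for protein-coding genes in their order on chromosome 16, females in blue and males in orange; filled points have an adjusted p below 0.05. Parp14, Dtx3l and Parp9 lie between 0.50 and 1.15, and the tested genes beyond Parp9 lie between -0.33 and 0.00.

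The ratio of Dtx3l to Parp9 within a library does not depend on the scaling between libraries. WT females had ratios of 0.719, 0.679 and 0.727, and ARE-Del females 0.766, 0.628 and 0.720. The male ratios were 0.591, 0.663 and 0.684 (WT) against 0.650, 0.635 and 0.658 (ARE-Del). The groups overlapped in both sexes, and the mean log2 ratio differed between ARE-Del and WT by -0.0023 (exact stratified permutation test, 2-sided p = 0.98). Leaving out 1 library at a time moved this difference between -0.0336 and 0.0378.

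The level of Parp14 was closer to that of Parp9 in the ARE-Del libraries than in WT. The ratio of Parp14 to Parp9 was 0.401 ± 0.0181 in WT females against 0.613 ± 0.0450 with the allele (SD, n = 3), and 0.281 ± 0.0469 in WT males against 0.524 ± 0.0273. The ARE-Del libraries lay above the WT libraries in both sexes. Parp12 to Parp9 was 0.631 ± 0.0914 and 0.726 ± 0.0251 in females, where the groups overlapped, and 0.502 ± 0.0352 and 0.653 ± 0.0401 in males, where they did not. These ratios are given without a test.

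**Figure D3:**
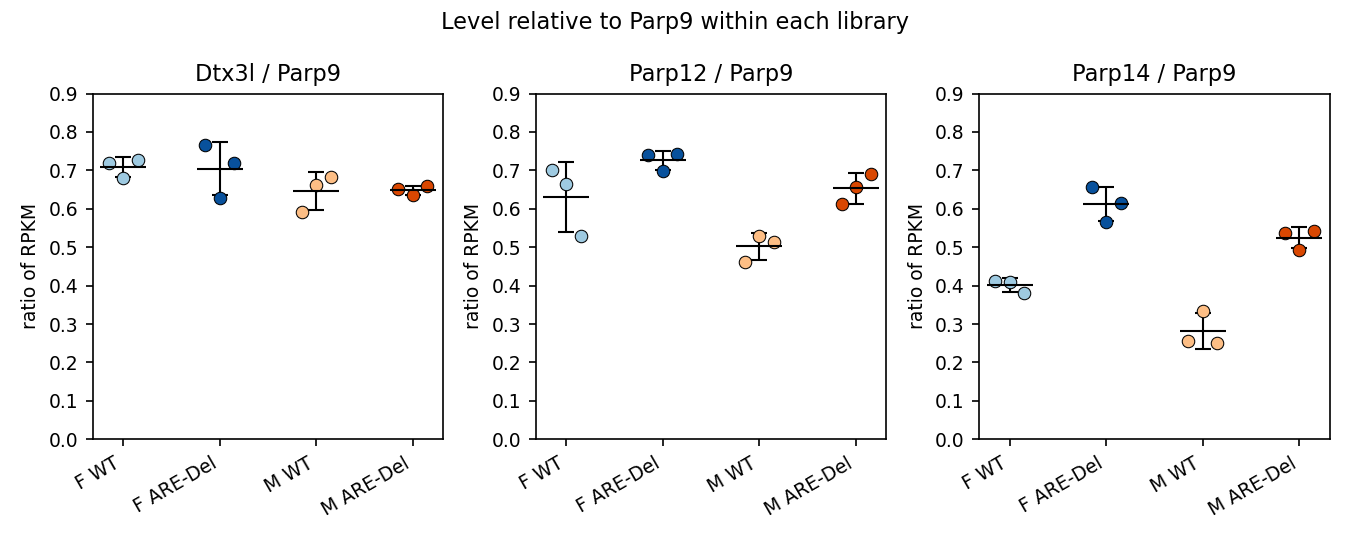
Ratio of RPKM to that of Parp9 within each library for Dtx3l, Parp12 and Parp14; points are libraries, bar and whiskers mean and SD over 3 libraries. The Dtx3l ratio stays between 0.591 and 0.766 in all libraries, and the Parp14 ratio is 0.252 to 0.413 in WT and 0.493 to 0.656 in ARE-Del.

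Levels also differed in order. In WT livers Dtx3l came after Parp9, followed by Parp12, whose libraries overlapped with those of Dtx3l in both sexes. Parp14 overlapped with Parp1 in female and male WT, with means of 3.14 and 3.08 RPKM in females and 2.14 and 2.99 in males. In ARE-Del livers Parp14 was above Parp1 in every library, at 8.17 ± 1.01 against 3.65 ± 0.311 RPKM in females and 5.92 ± 0.307 against 3.34 ± 0.157 in males (SD, n = 3). Parp2 was the lowest of the 6 genes in all 12 libraries.

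Parp1, the main sensor of DNA strand breaks, measured 3.27, 3.03 and 2.95 RPKM in WT females against 3.94, 3.32 and 3.69 with the allele. Male Parp1 was at 2.68, 3.00 and 3.27 RPKM (WT) against 3.47, 3.37 and 3.17 (ARE-Del). The groups did not overlap in females and overlapped in males. The log2 difference was 0.19 ± 0.07 in females (limma, adjusted p = 0.0702, 95% interval 0.03 to 0.34) and 0.12 ± 0.07 in males (adjusted p = 0.25, interval -0.03 to 0.28), so it did not pass in either sex. The female value passed at 0.24 when the library low in Xist was left out (limma, adjusted p = 0.0379). When libraries were scaled by median of ratios it was 0.04 (adjusted p = 0.617), and the male value turned to -0.0147.

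Parp2, which shares the repair role of Parp1, measured 1.14, 1.31 and 1.12 RPKM in WT females against 1.85, 1.69 and 1.997 with the allele. Male Parp2 was at 0.881, 1.29 and 1.32 RPKM (WT) against 1.29, 1.11 and 1.16 (ARE-Del). The female groups were apart and the male groups overlapped. Mean Parp2 RPKM was 1.56-fold that of WT in females, beside 1.70-fold for Parp9 and 1.69-fold for Dtx3l, and 1.02-fold in males. At so low a level log2(RPKM + 1) understates the change. Parp2 rose in females by 0.38 ± 0.08 on the log2 scale (SE; limma, adjusted p = 0.00359), or by 0.42 without the library low in Xist, and was at 0.02 ± 0.08 in males (adjusted p = 0.891, 95% interval -0.16 to 0.20), or -0.0777 under median-of-ratios scaling. The difference between these effects was 0.36 ± 0.12 and did not pass (limma, adjusted p = 0.205).

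The deposited scaling bears on such small differences. The median log2 change of all tested genes was 0.09 in females and 0.10 in males, and median-of-ratios scaling moved it by -0.12 in both, quantile normalization by -0.16 and -0.14. Relative to the median gene the female changes were 1.05 for Parp14, 0.76 for Parp12, 0.61 for Parp9, 0.57 for Dtx3l, 0.29 for Parp2 and 0.10 for Parp1. In males they were 1.05, 0.71, 0.43 and 0.41 for the interferon-linked genes in the same order, -0.08 for Parp2 and 0.03 for Parp1. All 4 interferon-linked genes stayed called as higher in both sexes under each of the 21 alternatives tried, and Parp2 in females likewise.

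The genotype effect was then compared between the sexes. The difference of the log2 changes, females minus males, was 0.17 ± 0.10 for Parp9, 0.16 ± 0.14 for Dtx3l, 0.04 ± 0.13 for Parp12 and -0.01 ± 0.16 for Parp14. None of the 6 genes passed, where 0.568% of tested genes did. The adjusted p in limma ranged from 0.618 to 0.995 for the genes other than Parp2, and at an unadjusted threshold of 0.05 Parp2 alone would pass. The sign of the Parp12 and Parp14 values changed when single libraries were left out, over -0.04 to 0.12 and -0.15 to 0.07. The 95% intervals reached from -0.06 to 0.40 for Parp9 and from -0.35 to 0.34 for Parp14, and differences within them are compatible with the data.

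Levels themselves were compared between females and males within each genotype. In WT, 1 of the 6 genes passed, Parp14, higher in females by 0.41 ± 0.11 on the log2 scale (limma, adjusted p = 0.0371), where 6.72% of tested genes were called higher in females and 9.76% in either direction. Every female WT library had more Parp14 than every male WT library, as for 18.9% of tested genes. That call was lost in 9 of 21 alternatives, among them the fit without filter (adjusted p = 0.0908) and those without male WT 1 (0.157) or male WT 3 (0.13). Parp12 was higher in female WT by 0.31 ± 0.09 and did not pass (adjusted p = 0.0601). In ARE-Del livers, 4 of the 6 were higher in females, against 16.4% of tested genes called higher and 22.4% called in either direction.

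Among ARE-Del livers the female to male difference was 0.40 ± 0.11 for Parp14, 0.35 ± 0.09 for Parp12, 0.32 ± 0.10 for Dtx3l and 0.38 ± 0.08 for Parp2 (SE; limma, adjusted p between 0.00574 and 0.0422). Parp9 was just outside (0.22 ± 0.07, adjusted p = 0.0508) and Parp1 was at 0.10 ± 0.07 (adjusted p = 0.362). Every female ARE-Del library was above every male ARE-Del library for Parp9, Dtx3l, Parp12, Parp14 and Parp2, which held, with females higher, for 26.7% of tested genes. The Dtx3l call was lost in 11 of 21 alternatives, the Parp14 call in 5 and the Parp12 call in 3, and the count of called genes was 1 without female ARE-Del 1 or 3 and 2 without any 1 of the male ARE-Del libraries. The Parp2 call held in all 21.

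The other PARP genes gave a mixed picture. Of 10 listed, 9 were tested, and 6 rose in females and 5 in males, with median log2 changes of 0.25 in both sexes. Of all tested genes 25.8% and 19.5% were called higher, with medians of 0.09 and 0.10. Under median-of-ratios scaling 4 and 2 of the listed genes rose, beside 1790 and 1165 of all 10568 tested genes. Under quantile normalization 4 and 2 rose and 1 fell in each sex, beside 1616 and 923 higher and 2497 and 1153 lower among all. The largest log2 change among the tested was in Parp11, a mono-ADP-ribosylating enzyme, which measured 0.692, 0.693 and 0.627 RPKM in WT females against 2.63, 2.29 and 2.21 with the allele. Male Parp11 was at 0.385, 0.409 and 0.348 RPKM (WT) against 1.44, 1.36 and 1.72 (ARE-Del), and neither sex showed overlap. Mean RPKM was 3.54-fold and 3.95-fold that of WT, and the log2(RPKM + 1) rise, which understates the change of so low a gene, was 1.01 ± 0.07 in females (SE; limma, adjusted p = 6.1e-07) and 0.86 ± 0.07 in males (adjusted p = 3.4e-06).

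Parp3, a repair PARP, rose by 0.62 ± 0.12 and 0.46 ± 0.12, and Parp4, the vault particle PARP, by 0.57 ± 0.11 and 0.52 ± 0.11 (SE; limma, adjusted p between 0.00148 and 0.0159). The antiviral zinc-finger protein Zc3hav1 and the aryl hydrocarbon receptor target Tiparp rose in both sexes too, by 0.42 to 0.48 and by 0.25. Under median-of-ratios or quantile scaling the male calls left in this list were Parp11 and Parp4, so Parp3, Zc3hav1 and Tiparp lost theirs (Parp3 with adjusted p = 0.0678 and 0.0663, limma). The tankyrase Tnks2 passed in females alone (0.23 ± 0.08; limma, adjusted p = 0.0426, against 0.0583 in males). Tnks, Parp6 and Parp16 passed in neither sex, with log2 values between -0.05 and 0.16. Parp8 stayed below the filter, at a mean of 0.0625 RPKM in WT and 0.261 in ARE-Del females and of 0.0384 and 0.130 in the male groups, with no overlap in either sex.

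**Figure D4:**
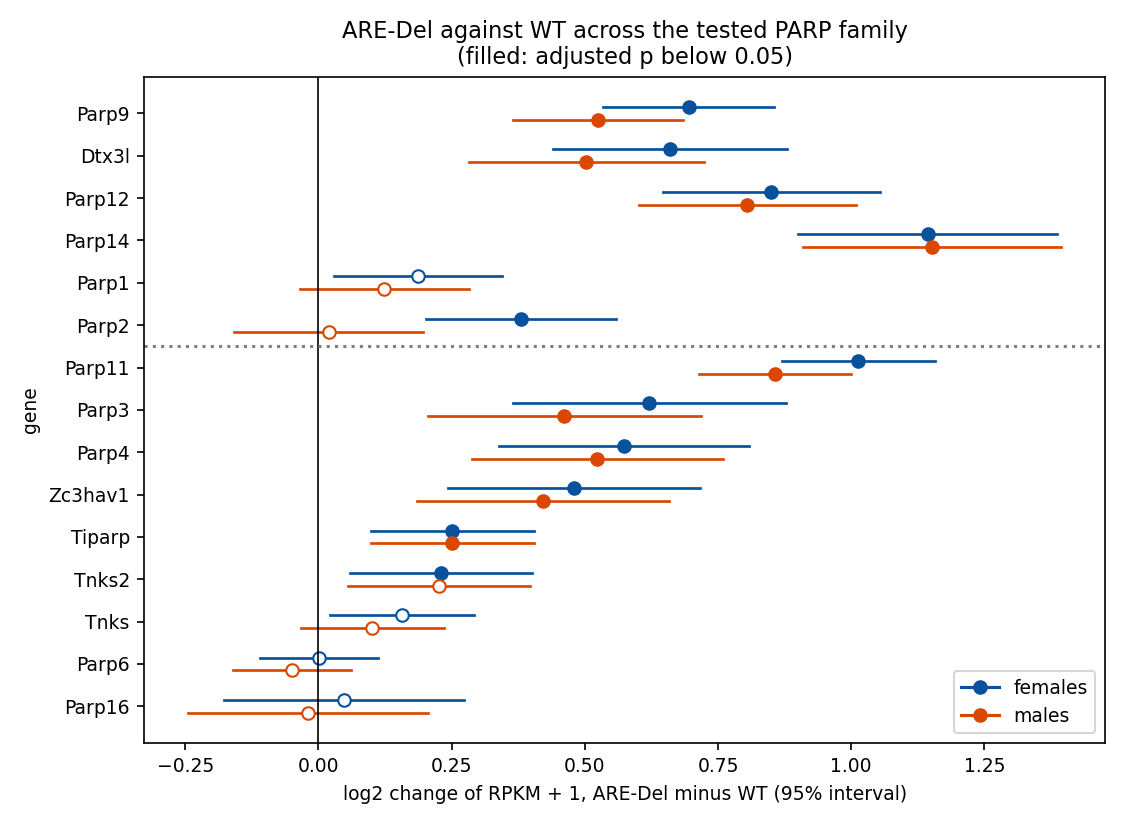
Log2 change of RPKM + 1 (ARE-Del minus WT) with 95% intervals for the 6 genes (above the dotted line) and the other tested PARP genes, females in blue and males in orange; filled points have an adjusted p below 0.05. Parp14 and Parp11 lie farthest to the right in both sexes, while Parp6 and Parp16 lie between -0.05 and 0.05.

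The Parp11 promoter is shown because this window holds both motifs. Matches in windows of the other listed PARP genes are not given, so it is not set apart from theirs. The Parp11 window was chosen after the values and matches were seen. It is the first of 2 start sites (RefSeq, GRCm38.p6, chr6:127446590-127446889, plus strand). The window of the second start site (chr6:127453377-127453676, plus strand) holds neither motif. Capitals mark a match to the ISRE core on the opposite strand (TTTCGATTTC, from 44 bases before the start) and an overlapping match to the GAS core (TTCTTGGAA, from 37 bases before it).
Parp11: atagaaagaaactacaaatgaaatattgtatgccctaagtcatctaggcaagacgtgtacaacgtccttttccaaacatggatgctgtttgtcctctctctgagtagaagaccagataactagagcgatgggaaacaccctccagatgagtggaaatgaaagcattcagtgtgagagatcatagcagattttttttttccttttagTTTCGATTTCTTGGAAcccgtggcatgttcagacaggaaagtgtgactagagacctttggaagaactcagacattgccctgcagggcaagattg

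In the list of the interferon-gamma receptor, its kinases and transcription factors, all 6 tested genes rose in both sexes. The median log2 changes were 0.66 and 0.55. Among all tested genes 25.8% were called higher in females and 19.5% in males. Under median-of-ratios scaling 5 and 4 of the 6 rose, beside 1790 and 1165 of all 10568 tested genes. Irf1, an interferon-induced transcription factor, rose by 1.39 ± 0.14 in females and 1.59 ± 0.14 in males, and the receptor chain Ifngr1 by 0.80 ± 0.07 and 0.69 ± 0.07 (SE; limma, adjusted p between 5.4e-06 and 5.4e-05). Stat2 and Irf9 share their rows with unrelated genes and were not analysed here.

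Of 9 tested enzymes that remove or read ADP-ribose, 2 rose and 1 fell in females and 4 rose in males, beside 25.8% higher and 5.53% lower among all tested genes in females and 19.5% higher in males. The list had median log2 changes of 0.08 in females and 0.22 in males. Under median-of-ratios scaling they were -0.06 and 0.10. That scaling called 1 higher and 2 lower in females and 1 lower in males. Among all 10568 tested genes it called 1790 higher and 2040 lower in females, and 1112 lower in males. The mitochondrial hydrolase Macrod1 fell by 0.48 ± 0.10 on the log2 scale in females (limma, adjusted p = 0.00383) and was at -0.27 ± 0.10 in males (adjusted p = 0.0861). The arginine-specific hydrolase Adprh rose by 0.35 ± 0.07 and 0.25 ± 0.07, and the phosphodiesterase Nudt16 by 0.33 ± 0.09 and 0.31 ± 0.09 (adjusted p between 0.00182 and 0.0289). Both male calls were lost under median-of-ratios scaling (limma, adjusted p = 0.133 and 0.14) and after quantile normalization, as was the female call of Nudt16 under both and that of Adprh after quantile normalization. Of the other Deltex ligases Dtx3 rose in females (0.39 ± 0.09; limma, adjusted p = 0.00636) and not in males (adjusted p = 0.0605), and Dtx4 passed in neither.

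Among 14 tested genes of NAD synthesis and use, 3 rose in females and 4 in males, with medians of 0.03 and 0.06 that were -0.09 and -0.08 under median-of-ratios scaling (2 up and 5 down, 1 up and 1 down). Of all tested genes 25.8% were called higher in females and 19.5% in males, so these counts do not set the list apart. The all-gene medians were 0.09 and 0.10, and -0.03 and -0.02 under median-of-ratios scaling. That scaling called 1790 genes higher and 2040 lower in females, and 1165 and 1112 in males, of all 10568 tested. Nampt (listed as Pbef1), the rate-limiting enzyme of NAD salvage, rose by 0.92 ± 0.12 and 0.89 ± 0.12, and the NAD-consuming surface enzyme Cd38 by 0.79 ± 0.16 and 0.55 ± 0.16 (SE; limma, adjusted p between 7.2e-05 and 0.0245). The male Cd38 call was lost under median-of-ratios scaling and quantile normalization (adjusted p = 0.0514 and 0.0569). Qprt, of the route from tryptophan, rose by 0.29 ± 0.09 and 0.34 ± 0.09 (adjusted p = 0.0306 and 0.0209), and its female call was lost without the library low in Xist (0.0752). Under median-of-ratios scaling Qprt passed in neither sex (0.369 and 0.212). Of 11 tested single-strand break repair partners of Parp1 and Parp2, none rose and 1, Tdp2 (listed as Ttrap), fell in females by 0.37 ± 0.09 (limma, adjusted p = 0.00601), beside 25.8% called higher and 5.53% lower among all tested genes. None of the 11 passed in males, where 21.5% of all tested genes did. The endonuclease Apex1 was at 0.16 ± 0.12 and 0.05 ± 0.12. The repair list had median log2 values of 0.08 in females and -0.04 in males, and -0.02 and -0.13 under median-of-ratios scaling, where 1 fell in each sex. Quantile normalization gave -0.10 and -0.18, and 3 fell in each sex, beside 2497 and 1153 of all 10568 tested genes.

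For each of the 6, the closest genes in profile among all but these 6 were found by the root mean square difference of centred log2(RPKM + 1) values over the 12 libraries, with 8678 named genes as candidates. Closest to Parp12 were Trafd1 (0.0622), Loh11cr2a (0.0754) and the MHC class I peptide editor Tapbpl (0.0767). Closest to Parp14 were the TNF receptor family member Tnfrsf14 (0.103) and the interferon-induced genes Ifi44 (0.107) and Usp18 (0.123). The tetraspanin Tspan3 was closest to both Parp9 (0.0618) and Dtx3l (0.0824), ahead of St6galnac4 (0.0691) and Pfkp (0.073) for Parp9 and of Gng2 (0.0854) and Prkd2 (0.0881) for Dtx3l. Parp9 and Dtx3l differed from each other by 0.0864, less than Dtx3l and Prkd2, and Parp9 and Parp14 by 0.314. Parp1 was closest to Chid1 (0.0322), Ap2b1 (0.0391) and Sytl4 (0.0409), and Parp2 to the DNA damage adaptor Mdc1 (0.0647), Zfp13 (0.069) and Dhx34 (0.0714). Several of these genes are low, and log2(RPKM + 1) understates their change, so a close profile is not a like fold change. Tspan3, St6galnac4, Pfkp and Gng2 reached at most 1.39, 0.887, 0.853 and 1.55 RPKM, Sytl4 0.726 and Zfp13 0.643. Mean Pfkp was 0.160 RPKM in WT and 0.760 in ARE-Del females, against 7.84 and 13.3 for Parp9.

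These are whole livers, in which a rise in a transcript per cell and a rise in the number of cells that express it cannot be told apart. Markers of several immune cell types were higher in ARE-Del livers, to different degrees. The summed RPKM of 5 leukocyte markers (Ptprc, Coro1a, Laptm5, Cd53, Itgb2) was 6.44 to 11.6 in WT females against 43.7 to 56.5 with the allele, and 4.40 to 7.31 against 17.5 to 24.3 in males. All 5 rose in both sexes, and the group means differed 5.27-fold in females and 3.76-fold in males. Among all tested genes 25.8% were called higher in females and 19.5% in males. All 5 stayed called under median-of-ratios scaling, beside 1790 and 1165 of all 10568 tested genes. The sum of 11 macrophage and Kupffer cell markers was 87.0 to 148 in WT females against 384 to 469 with the allele, and 61.1 to 97.8 against 231 to 280 in males; all 10 that were tested rose in both sexes. At levels of 4.87 RPKM or less in every library, the T cell sum was 7.23-fold and 3.53-fold higher in ARE-Del females and males, the NK cell sum 4.31-fold and 4.54-fold and the dendritic cell sum 11.3-fold and 7.79-fold. The B cell sum was 1.93-fold and 1.86-fold higher. The neutrophil sum was 2.84-fold and 1.48-fold higher, with groups that overlapped in both sexes. Outside the immune cells, the sums were 1.46-fold and 1.83-fold for endothelium, 1.98-fold and 1.86-fold for bile duct cells and 1.13-fold and 1.11-fold for stellate cells. No marker of any list was at 0 throughout a group. The mean summed RPKM of 6 hepatocyte markers was 1.22-fold higher in ARE-Del than in WT in both sexes. Of these 6, 1 was called higher in females and 3 in males. The sums were apart in females and overlapped in males, where the lowest ARE-Del sum (20737) was below the lowest WT sum (20901). The part of these cells in the PARP values was not tested.

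Within groups the marker lists did not follow the PARP values in a single way. The library labelled female ARE-Del 2 had the lowest Parp9, Dtx3l, Parp12 and Parp14 of its group, and female ARE-Del 1 had the highest of all 4 genes. The leukocyte sum was highest in female ARE-Del 2 (56.5) and lowest in female ARE-Del 1 (43.7), and the macrophage and dendritic cell sums had that order too. The T cell sum was 4.87, 2.49 and 4.21 RPKM in female ARE-Del 1 to 3, the order of the 4 PARP genes, and the NK cell sum was also lowest in female ARE-Del 2 (2.72). Of all tested genes 58.2% were lowest in female ARE-Del 2 and 43.5% highest in female ARE-Del 1. In male WT, all 4 genes were highest in male WT 2, as were the leukocyte sum (7.31) and 48.2% of tested genes. In female WT and male ARE-Del the 4 genes did not share a highest or a lowest library.

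**Figure D5:**
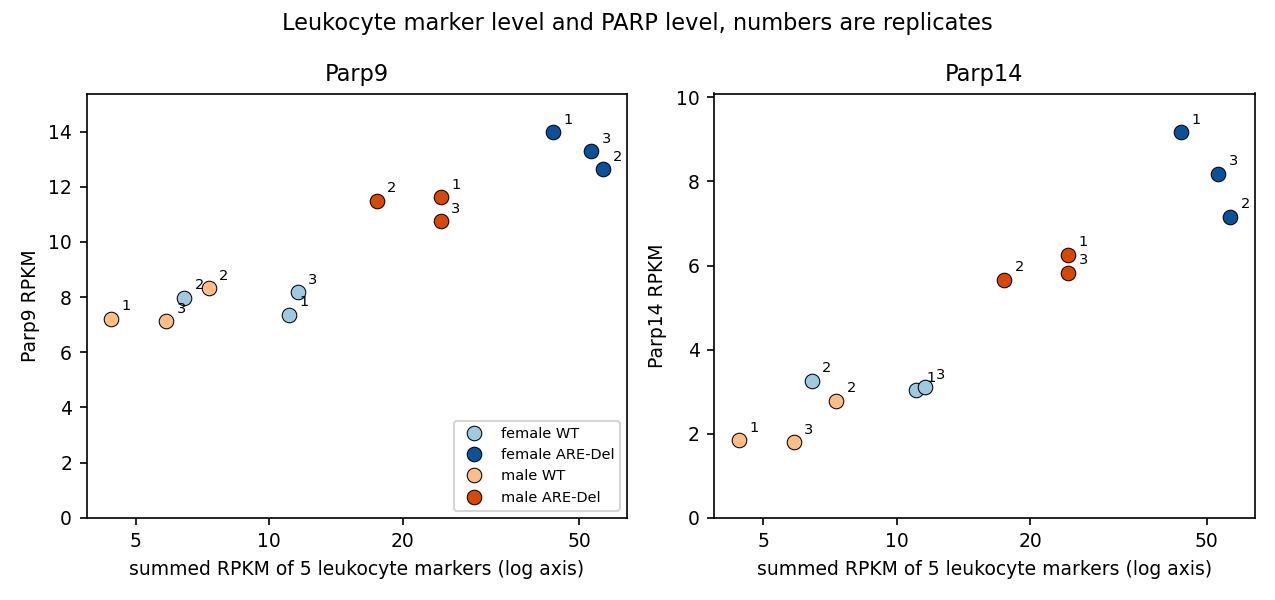
Parp9 and Parp14 RPKM against the summed RPKM of 5 leukocyte markers (log axis) for the 12 libraries, coloured by group and numbered by replicate. WT libraries lie between 4.40 and 11.6 on the marker axis and ARE-Del libraries between 17.5 and 56.5, and within female ARE-Del the library with the most marker signal (56.5) has the lowest Parp9 and Parp14, whereas the T cell (2.49) and NK cell (2.72) sums, not plotted, are lowest in that library too.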

How the data were processed

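Liver RNA from 12 samples was sequenced as Illumina TruSeq libraries, per the labels' protocols. RPKM per gene is the unit the authors deposited. Per the submitters' processing notes the tools and build were Trimmomatic 0.30, TopHat2 2.0.8, mm9, Partek and GenomeStudio 6.6. The counting of reads, its annotation and its strand setting are not stated in the labels or notes used here.

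A gene was tested where 3 or more libraries reached 0.5 RPKM. Log2(RPKM + 1) was fitted with limma 3.58.1 (R 4.3.3) as 4 group means with variances that follow the mean, and p-values were Benjamini-Hochberg adjusted over all tested genes at 0.05 within each of 5 comparisons. The filter can pass a gene through 1 group alone. Scaling was left as deposited. The Dtx3l to Parp9 ratio and Ifng were tested by exact permutation of genotype within sex. Alternatives were the pseudocount, the filter, median-of-ratios and quantile scaling, the variance trend, a replicate block, a fit of only 2 groups and leaving out each library. Relative depth came from the commonest ratio of values below 0.2 RPKM. Of the list entries, 115 matched by symbol, 9 by synonym and 8 not at all.

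The members and gene lists were chosen with earlier results of these data known. From each gene list the text names the 3 genes with the largest absolute female log2 change among its called genes (the most abundant where fewer than 3 were called), and for each member the 3 nearest profiles. Some genes that this rule names are not reported here. The remaining PARP genes and Hspbap1 were named after their values were seen. Figures were drawn with matplotlib 3.10.9.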

Additional observations from a re-analysis of the deposited data

How the results depend on the processing

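All 4 interferon-linked genes kept their direction and call in both sexes under all 21 alternatives. The count of all genes whose genotype effect differed between the sexes, 60 as reported, was 14 and 15 with pseudocounts of 0.1 and 0.5, 30 with no filter, 32 with a stricter filter, 106 after quantile normalization, 39 without a variance trend and 0 to 74 with 1 library left out (0 without male WT 1). Of the 6 genes, 1 differed between WT females and males as reported, against 0 with no filter or only the 2 groups compared and 0 to 2 with 1 library left out. In ARE-Del the count of 4 became 2 with no filter and 1 to 5 with 1 library left out. Counts of all genes with 1 library left out were 2297 to 3272 for females, 1259 (without male WT 1) to 2481 for males, 525 to 1116 between the sexes in WT and 1367 to 2494 in ARE-Del. The cause was not tested. Same-numbered libraries did not deviate together (correlations of -0.291 to 0.245 over 18 pairs), so the numbers were not taken as pairs. With the replicate block the interaction count was 32, and 0 of the 6 genes passed between the sexes in WT. With that block Parp14 between the sexes in WT had an adjusted p of 0.0631 and Dtx3l in ARE-Del 0.0708 (limma), and the block changed no other call among the 6 genes. Values near 0 changed sign. Under median-of-ratios scaling the male genotype effect was -0.0147 for Parp1 and -0.0777 for Parp2, and the WT sex difference -0.0168 for Parp9, -0.0189 for Parp1 and -0.016 for Parp2. After quantile normalization the male effect was -0.0238 for Parp1 and -0.128 for Parp2, and the WT sex difference -0.00247 and -0.0407. With 1 library left out the male Parp2 effect ranged from -0.0797 to 0.0732, the interaction from -0.0423 to 0.116 for Parp12 and from -0.149 to 0.0734 for Parp14, the WT sex difference from -0.0185 to 0.088 for Parp1 and from -0.0779 to 0.075 for Parp2, and the difference between ARE-Del and WT in the log2 ratio of Dtx3l to Parp9 from -0.0336 to 0.0378. Read totals were not used here, so no counting interval is given.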
